A study of Mus musculus with 8 samples.

Results

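Txnip, the 4 other alpha-arrestin genes listed with it, the Mondo factor gene Mlxip, the glucose transporter gene Slc2a1 and the mitochondrial thioredoxin gene Txn2 were followed in sorted mouse osteoblasts. They are 8 of the 21154 genes in the deposited count table, matched by symbol, and all 8 passed the filter on low counts. They were selected on measured values, namely the counts of doxorubicin-treated against control mice, chiefly those of Txnip. The differences between these groups are therefore given for the 8 genes as a description and support no claim.

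The libraries came from female mice of the Col2.3-GFP genotype, a reporter in which a fragment of the Col1a1 promoter drives green fluorescent protein in bone-forming cells. All groups carried this reporter. The mice were young adults of 8 to 10 weeks and received 4 intravenous injections of doxorubicin (DOX, 5 mg/kg each), an anthracycline used in chemotherapy, or of phosphate-buffered saline (PBS), spaced 1 week apart. Osteoblasts were collected 8 weeks after treatment, by sorting GFP-positive cells from digested bone chips, in 3 PBS and 5 DOX libraries. The reporter marks cells in which the promoter fragment is active, so the sort holds several stages of bone-forming cell. The labels name 2 batches: PBS replicate 1 was in batch 1 with DOX replicates 1 and 2, and the remaining 5 libraries were in batch 2. DOX replicate 1 carries conflicting labels, DOX in its title but PBS in its treatment tag, and was counted by its title.

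Library totals ran from 39419027 to 44299591 counts. All 11 osteoblast markers were detected and tested, and together they summed to between 201935 and 536293 CPM, the usual count unit scaled to a common library size. PBS replicate 1 and DOX replicate 1 stood apart from the other libraries. Type I collagen genes took 19.1% and 23.2% of their counts, against 26.0% to 39.5% elsewhere. The summed erythroid markers stood at 155 and 109 CPM in these libraries, against 38.3 CPM in DOX replicate 2 and at most 10.6 CPM in batch 2. Over the 8 libraries the summed markers of macrophages and osteoclasts ran from 283 to 434 CPM, of B cells from 46.0 to 72.2, of neutrophils from 0.538 to 122 and of skeletal muscle from 2.85 to 5.56 CPM.

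Alpha-arrestins are adaptor proteins with an arrestin fold that recruit ubiquitin ligases of the NEDD4 family to membrane proteins. Txnip binds reduced thioredoxin and promotes the internalisation of glucose transporters, and so restrains glucose uptake. The Mondo factors, of which Mlxip encodes MondoA, form dimers with Mlx, sense phosphorylated glucose and bind paired E-box sequences. Txnip and Arrdc4 are their best known shared targets, and in cultured cells both genes respond to glucose. Mouse osteoblasts take up glucose for collagen synthesis, and Slc2a1, which encodes GLUT1, is known as a main route of that uptake in their precursors.

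The promoters of Txnip and Arrdc4 are shown because they are the sites through which Mondo factors are known to act on both genes. Sequences are from RefSeq, build GRCm38.p6, which is not the build of the counts (GRCm39). All 8 genes had at least 1 window, and each window holds the 250 bases before an annotated start. Capitals mark matches, on either strand, to the paired E-box element (CACGNG, any 5 bases, CACGNG), the E-box CACGTG, the CCAAT box and the FoxO element GTAAACA. An E-box could also lie inside the paired element, but did not here.
Txnip: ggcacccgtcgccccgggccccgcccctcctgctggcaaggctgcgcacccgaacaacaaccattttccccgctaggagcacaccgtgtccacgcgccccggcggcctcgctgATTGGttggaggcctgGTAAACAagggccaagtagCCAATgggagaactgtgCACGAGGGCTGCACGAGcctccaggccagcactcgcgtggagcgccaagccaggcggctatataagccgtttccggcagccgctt
Arrdc4: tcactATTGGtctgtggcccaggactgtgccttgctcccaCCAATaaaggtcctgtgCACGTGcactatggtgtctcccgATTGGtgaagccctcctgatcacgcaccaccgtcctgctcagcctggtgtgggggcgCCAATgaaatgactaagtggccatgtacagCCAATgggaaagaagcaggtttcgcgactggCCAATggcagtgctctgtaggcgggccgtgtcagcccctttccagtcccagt

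The Txnip window lies at chr3:96557707-96557956 on the plus strand and the Arrdc4 window at chr7:68749239-68749488 on the minus strand. The paired element of Txnip, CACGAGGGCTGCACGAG, runs from position -85 to position -69 relative to the annotated start. It stood in 15 of 32851 promoter windows of the same length (0.0457%). Of the 10 windows of the 8 genes, that of Txnip was the 1 that held it. A FoxO element, found in 3.17% of all windows, lies at -121 to -115 in Txnip and in no window of the other 7 genes. CCAAT boxes, found in 33.9% of all windows, flank it at -137 and -102. The Arrdc4 window held 6 CCAAT boxes and a single E-box at -193, a sequence found in 6.02% of windows. Of the other genes, Mlxip had 2 CCAAT boxes, Arrdc2 had 3, Txn2 had 1, and 2 of the 3 Arrdc3 windows had 1. The windows of Arrdc1 and Slc2a1 held none of the 4 motifs. A match says only that these letters are present, and elements may lie outside the windows. Looser spellings of the paired element were not searched.

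Txnip was by far the most abundant of the 8 genes per length of transcript. As CPM per kilobase of exon (RPKM), its level was 91.5 ± 20.2 (SD, n = 8), and its lowest library, at 54.4 RPKM, lay above every library of every other gene. Txn2 followed at 17.8 ± 0.847 RPKM, then Arrdc4 at 11.5 ± 4.39 and Arrdc3 at 7.60 ± 1.80 RPKM (SD, n = 8 each). The ranges of Txn2 and Arrdc4 overlapped, as did those of Arrdc4 and Arrdc3. Arrdc1 (3.59 ± 0.759 RPKM), Mlxip (3.24 ± 0.429) and Arrdc2 (3.06 ± 0.443) lay together with overlapping ranges. Slc2a1 was lowest at 0.589 ± 0.323 RPKM, and its highest library, at 1.16 RPKM, lay below the lowest Arrdc2 library, at 2.50 RPKM.

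Mlxip, which encodes the glucose-sensing transcription factor MondoA, was expressed at a moderate level in every library. It stood at 26.9, 26.9 and 29.6 CPM in PBS replicates 1 to 3. In DOX replicates 1 to 5 it stood at 32.7, 29.5, 24.8, 21.8 and 23.6 CPM. The DOX libraries lay on both sides of the PBS libraries: DOX replicate 1 was above them all, and the 3 DOX libraries of batch 2 were below them all. The log2 fold change, DOX minus PBS, was -0.11 ± 0.14 (SE). It was -0.27 without PBS replicate 1, -0.02 without PBS replicate 3 and -0.05 without DOX replicate 4.

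Txnip stood at 170 CPM in PBS replicate 1 and at 251 and 257 CPM in PBS replicates 2 and 3. In DOX replicates 1 to 5 it stood at 301, 264, 341, 353 and 351 CPM. Every DOX library was above every PBS library, but DOX replicate 2 and PBS replicate 3 were close to each other. The PBS mean was 226 ± 48.7 CPM (SD, n = 3) and the DOX mean 322 ± 38.6 CPM (SD, n = 5). The fitted log2 fold change was 0.55 ± 0.12 (SE, 95% interval 0.29 to 0.82), or 1.47-fold. The lowest PBS value belonged to PBS replicate 1, the library with the smallest collagen share and the most erythroid RNA. Without that library the log2 fold change was 0.46, without it and DOX replicate 1 together it was 0.37, and with DOX replicate 1 counted as PBS it was 0.35. In the last case the groups overlapped, since DOX replicate 2 lay below DOX replicate 1. In bulk RNA of sorted cells, a change in the share of expressing cells and a change in RNA per cell cannot be told apart.

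Arrdc4 encodes the alpha-arrestin most often reported beside Txnip as a Mondo target, and it also promotes the internalisation of glucose transporters. It stood at 74.4, 30.5 and 22.9 CPM in PBS replicates 1 to 3. In DOX replicates 1 to 5 it stood at 68.5, 48.1, 35.5, 46.8 and 46.1 CPM. PBS held both the highest and the 2 lowest libraries, so all 5 DOX libraries lay inside the PBS range. The log2 fold change was 0.29 ± 0.23 (SE), with a 95% interval of -0.22 to 0.80. It rested on PBS replicate 3, without which it was 0.06, and on PBS replicate 1, without which it was 0.69.

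**Figure D1:**
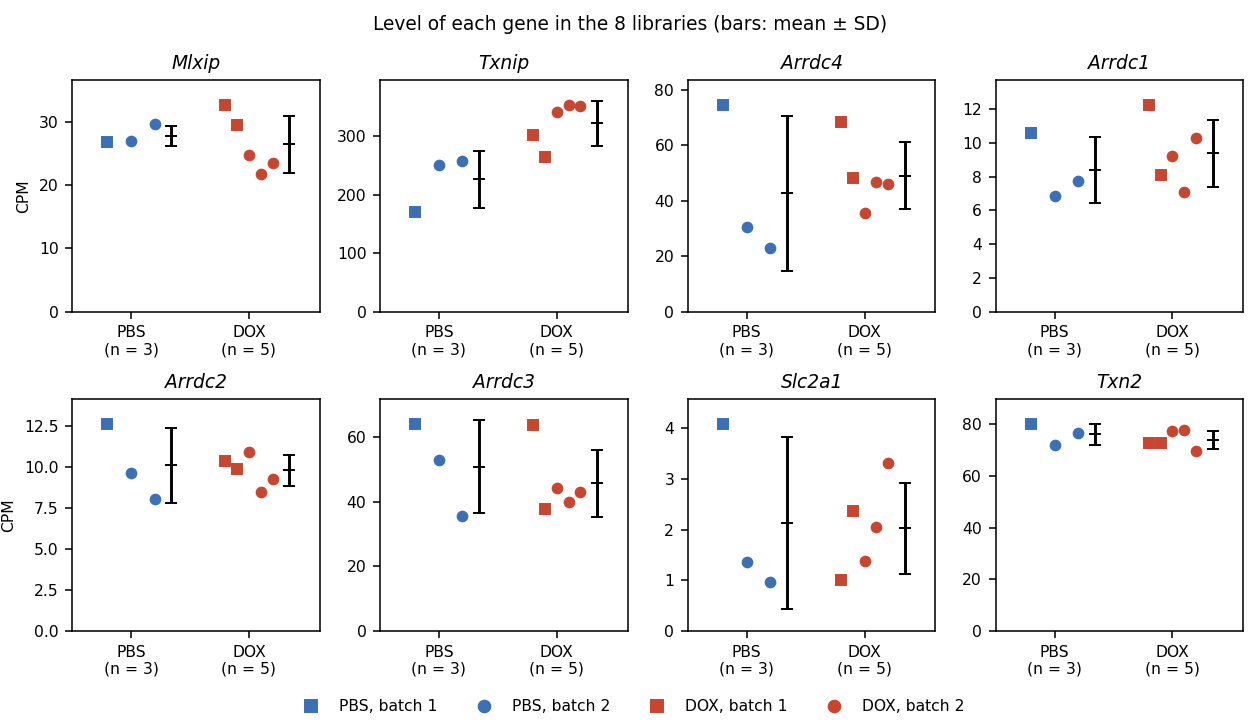
CPM of each of the 8 genes in the 3 PBS and 5 DOX libraries, with 1 panel and 1 linear axis from 0 per gene; squares are batch 1, circles batch 2, and black bars give the mean ± SD of the group. Txnip is the gene whose DOX libraries all lie above its PBS libraries, while for Arrdc4 the PBS libraries span the DOX libraries.

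Over all 8 libraries Txnip and Arrdc4 took different courses, while within batch 2 both were higher in the 3 DOX libraries than in the 2 PBS libraries. The ratio of their counts within a library does not depend on scaling. It was 2.28 Txnip counts per Arrdc4 count in PBS replicate 1, 4.39 in DOX replicate 1 and 5.48 in DOX replicate 2, the libraries of batch 1. In batch 2 it was 8.24 and 11.2 in PBS replicates 2 and 3, and 9.59, 7.53 and 7.61 in DOX replicates 3 to 5. The ratio separated the batches without overlap, while the range of the PBS libraries contained that of the DOX libraries. Txnip per Mlxip count ran from 6.32 to 9.31 in PBS and from 8.94 to 16.2 in DOX, with the 3 highest values in the DOX libraries of batch 2.

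**Figure D2:**
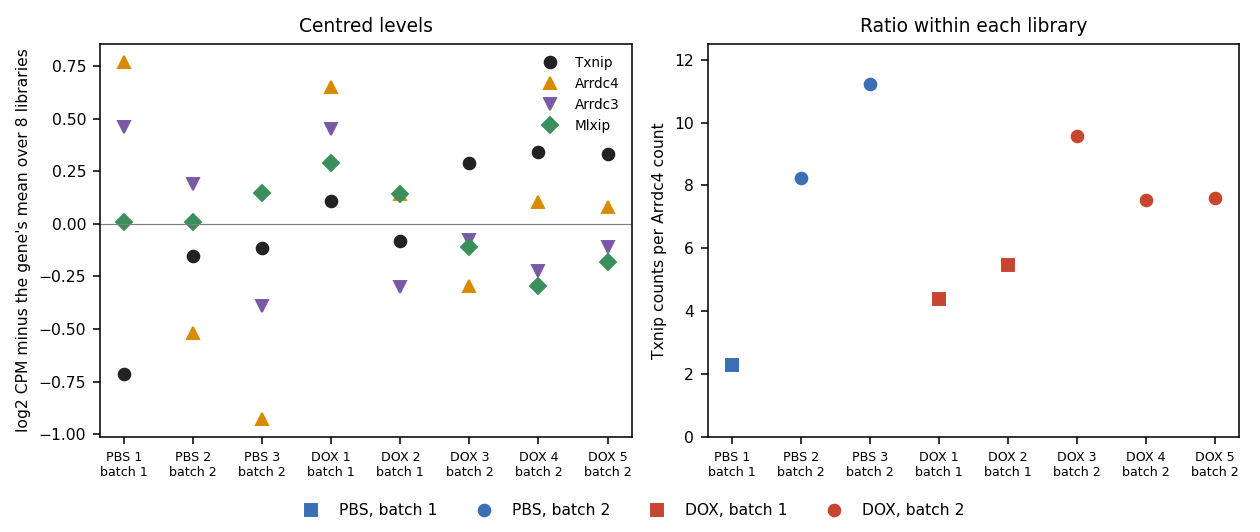
Left, log2 CPM of Txnip, Arrdc4, Arrdc3 and Mlxip in each library, centred on the mean of each gene over the 8 libraries. Right, Txnip counts per Arrdc4 count in each library on a linear axis from 0; the 3 libraries of batch 1 lie between 2.28 and 5.48 and the 5 of batch 2 between 7.53 and 11.2.

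The other alpha-arrestins showed no separation of the groups. Arrdc1, which encodes a protein that drives the budding of vesicles at the cell surface, ran from 6.85 to 10.6 CPM in PBS and from 7.11 to 12.2 CPM in DOX (log2 fold change 0.16 ± 0.20, SE). Arrdc2 is a less studied relative. It stood at 12.6, 9.60 and 8.07 CPM in PBS and between 8.50 and 10.9 CPM in DOX (log2 fold change -0.05 ± 0.17). Arrdc3 encodes an adaptor for the trafficking of beta-adrenergic receptors. It stood at 63.9, 53.0 and 35.5 CPM in PBS and at 63.6, 37.8, 44.2, 39.9 and 43.1 CPM in DOX replicates 1 to 5. Its log2 fold change was -0.16 ± 0.19 (SE), and it was highest in PBS replicate 1 and DOX replicate 1.

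Slc2a1 was scarce in every library. It had 217, 50 and 34 counts in PBS replicates 1 to 3, which is 4.08, 1.36 and 0.963 CPM. In DOX replicates 1 to 5 it had 50, 95, 56, 89 and 137 counts, or 1.01, 2.36, 1.38, 2.06 and 3.31 CPM. The highest library of all was PBS replicate 1, and the groups overlapped. The log2 fold change of 0.04 ± 0.55 (SE) had a 95% interval of -1.18 to 1.26, so a difference of more than 2-fold in either direction was not excluded at this depth and spread. Leaving out PBS replicate 3 gave -0.37, and leaving out PBS replicate 1 gave 0.96.

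Txn2, whose product is the thioredoxin of mitochondria, was the steadiest of the 8 genes. It stood at 80.0, 71.9 and 76.6 CPM in PBS and at 72.7, 72.8, 77.2, 77.8 and 69.7 CPM in DOX replicates 1 to 5. The highest library was 1.15 times the lowest, against 2.08 times for Txnip, 3.25 times for Arrdc4 and 4.23 times for Slc2a1. Its log2 fold change was -0.04 ± 0.11 (SE), with a 95% interval of -0.28 to 0.19. Of the genes nearest to it in level, 3.79% had a smaller fitted dispersion than Txn2. That share was 15.0% for Txnip and 96.6% for Arrdc4, each among its own neighbours.

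The comparison of DOX with PBS called no gene in edgeR's quasi-likelihood test with batch and group as terms. It called 0 of 15373 genes (0%) at an adjusted p under 0.05, and so 0 of the 8. At an unadjusted p under 0.05 it listed 304 higher and 267 lower genes, 571 in all, and this number was 1572 without DOX replicate 2, 1084 without PBS replicate 1 and 379 without DOX replicate 4. DESeq2 called 15 genes (0.0976%), of which Txnip was 1. Every DOX library lay above every PBS library for 1.24% of all genes and below for 1.19%; among the 8 genes this held for Txnip, which had been chosen for it, and for no gene in the lower direction. Of the 8 fitted differences 4 were higher and 4 lower in DOX.

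Within batches the genes other than Txnip took different courses. Txnip was higher in DOX by 0.73 ± 0.18 on the log2 scale within batch 1 and by 0.45 ± 0.13 within batch 2 (SE). Arrdc4 differed by -0.35 ± 0.27 within batch 1, where both DOX libraries lay below the single PBS library. It differed by 0.68 ± 0.21 within batch 2, where all 3 DOX libraries lay above both PBS libraries. Slc2a1 had the same pattern, with -1.28 ± 0.67 and 0.95 ± 0.55. Mlxip had the opposite one, with 0.21 ± 0.19 in batch 1 and -0.28 ± 0.14 in batch 2. Patterns of these kinds were common: 5.99% of all genes had that of Arrdc4 and Slc2a1, 6.16% that of Mlxip, and 3.36% lay higher in DOX in both batches as Txnip did. None of the 8 lay lower in both batches, as 2.91% of all genes did. Within batch 2 the collagen share was 39.5% and 38.7% in PBS and 33.6%, 26.0% and 28.0% in DOX, without overlap. Sums of macrophage and osteoclast markers also did not overlap there, at 328 and 283 CPM in PBS and 378, 434 and 399 CPM in DOX. Such sums follow the most abundant markers. Over all libraries 4 of these 8 markers were higher and 4 lower in DOX. Their median log2 fold change within batch 2 was 0.06, against 0.02 for all genes tested. Neutrophil markers summed to 42.5 and 0.538 CPM in PBS and to 16.5, 47.0 and 122 CPM in DOX, and adipocyte markers to 4.55 and 2.35 CPM and to 3.25, 21.8 and 12.9 CPM, both with overlap. The part of these markers and of the collagen share in the batch 2 values of Txnip, Arrdc4, Slc2a1 and Mlxip was not tested.

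The difference between the batch-specific values was tested with a batch by group term in edgeR, and it called 0 of 15373 genes (0%). At an unadjusted p under 0.05 the test listed 1806 genes, and DESeq2 called 291 (1.89%), none of them among the 8. The term was 1.03 ± 0.34 on the log2 scale (SE) for Arrdc4 (edgeR adjusted p = 0.319), 2.23 ± 0.86 for Slc2a1 (adjusted p = 0.376) and -0.48 ± 0.24 for Mlxip (adjusted p = 0.463). For Txnip it was -0.28 ± 0.22 (adjusted p = 0.661). Batch 1 had 1 PBS library, so its values rest on PBS replicate 1. In that library the erythroid, endothelial and adipocyte markers summed to 155, 20.6 and 43.8 CPM, each the highest of the 8 libraries. Their part in the batch 1 values was not tested.

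**Figure D3:**
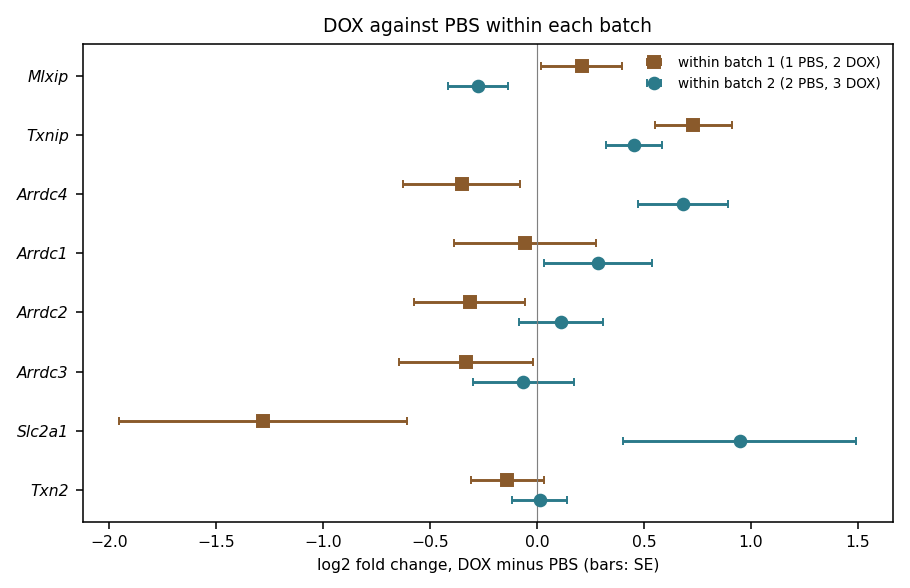
Log2 fold change, DOX minus PBS, of each gene within batch 1 (squares, 1 PBS and 2 DOX libraries) and within batch 2 (circles, 2 PBS and 3 DOX libraries), with bars of 1 SE from the edgeR fit with a batch by group term. Txnip lies above 0 in both batches, and Arrdc4 and Slc2a1 lie on opposite sides of 0.

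The batch term itself was not used to choose the genes. In edgeR it called 14 of 15373 genes (0.0911%), 0.0325% as higher and 0.0585% as lower in batch 2, and none of the 8. Arrdc4 was lower in batch 2 by -0.84 ± 0.22 on the log2 scale (SE, adjusted p = 0.189 in edgeR) and Txnip higher by 0.40 ± 0.12 (adjusted p = 0.222 in edgeR). DESeq2 called 506 genes for batch (3.29%), and Arrdc4 (DESeq2 adjusted p = 0.0178) and Txnip (DESeq2 adjusted p = 0.0216) were among them. In edgeR without DOX replicate 2, where 938 genes passed (6.18%), Arrdc4 passed as lower in batch 2 (edgeR adjusted p = 0.0273). Arrdc4 ran from 48.1 to 74.4 CPM in batch 1 and from 22.9 to 46.8 CPM in batch 2. These ranges nearly met, and the share of all genes whose batches did not overlap was not counted. For Mlxip, Arrdc1, Arrdc2, Arrdc3, Slc2a1 and Txn2 the batch term lay between -0.46 and -0.01. Erythroid markers summed to 38.3 to 155 CPM in batch 1 and 2.32 to 10.6 CPM in batch 2, and 5 of their 7 tested genes passed as lower in batch 2, against 0.0585% of all genes. Endothelial markers summed to 4.41 to 20.6 and 1.03 to 1.64 CPM, and adipocyte markers to 25.9 to 43.8 and 2.35 to 21.8 CPM. Immediate early genes, which respond quickly to cell handling and to other stimuli, summed to 2488 to 4226 CPM in batch 1 and 1349 to 2303 CPM in batch 2. The part of other cells and of handling in the Arrdc4 level was not tested.

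The genes whose pattern was most like that of Txnip were not alpha-arrestins. Likeness was the root mean square difference between the centred log2 CPM values over the 8 libraries, among the 5883 genes whose mean log2 CPM was 4 or more. The nearest were Agtrap, which encodes a protein that binds the angiotensin receptor (0.13 log2 units), the metalloprotease gene Mmp23 (0.14), the class I histocompatibility gene H2-Q7 (0.14), the peroxisomal reductase gene Pecr (0.14) and the zinc finger gene Zfp622 (0.14). H2-Q7 has near-identical relatives, so its counts are uncertain. In none of these 5 genes did every DOX library lie above every PBS library. A gene with no variation at all would differ from Txnip by 0.33. Txn2 differed by 0.36 (rank 2471), Mlxip by 0.44 (rank 4299), Arrdc3 by 0.54 (rank 5481) and Arrdc4 by 0.69 (rank 5753). Arrdc1, Arrdc2 and Slc2a1 were below the level needed for this ranking.

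Other reported targets of Mondo factors and of the related factor ChREBP were mostly not higher in DOX. Of 23 listed genes 17 were tested, Txnip and Arrdc4 among them. In DOX 5 were higher, Txnip and Arrdc4 included, and 12 lower. The median log2 fold change was -0.08, against 0.02 for all genes tested, of which 53.0% were higher. None passed in edgeR. Ldha, which encodes a subunit of lactate dehydrogenase, had a PBS mean of 361 ± 65.7 CPM (SD, n = 3) and a DOX mean of 373 ± 45.4 CPM (SD, n = 5), and its log2 fold change was 0.05 ± 0.16 (SE). The desaturase genes Scd1 and Scd2, of fatty acid synthesis, had log2 fold changes of -0.10 ± 0.20 and -0.24 ± 0.21. Taken by batch, the list median was -0.21 in batch 1 and -0.11 in batch 2, against 0.04 and 0.02 for all genes tested. Ldha differed by -0.35 within batch 1 and 0.28 within batch 2, the signs that Arrdc4 had. Klf10 and Pfkfb3, the remaining listed genes higher in DOX, had these signs too. Klf10 differed by -0.15 and 0.27, and Pfkfb3 by -0.29 and 0.40. Scd1 differed by 0.46 and -0.38, and Scd2 by -0.22 and -0.25. Many of the listed targets belong to lipid synthesis in liver and answer to other factors as well.

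The paired E-box element gave a list that rests on sequence alone. It stood in windows of 14 genes, of which 10 were tested. Apart from Txnip, 5 of these 9 were higher in DOX and 4 lower, with a median log2 fold change of 0.02, and none had an unadjusted p under 0.05 in edgeR. In none of the 9 did every DOX library lie above every PBS library. Rbbp4, which encodes a histone-binding protein and was named after its values were seen as the most abundant of the 9, had means of 184 ± 29.2 CPM over the 3 PBS libraries and 187 ± 12.3 CPM over the 5 DOX libraries (SD). Of the 23 listed targets of Mondo factors and ChREBP, Txnip alone was among the 14 genes with the element. The 9 other tested genes therefore do not stand for the reported targets. Whether Mondo factors bind any of these sites in osteoblasts was not measured.

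No call was made among the partners and rivals of Mlxip. Of 12 genes of the Mondo and MYC network 10 were tested, 4 were higher and 6 lower in DOX, and the median log2 fold change was -0.06, within a range of -0.41 to 0.36. Mlxipl, which encodes ChREBP, had no row under that symbol in the count table. Mxd4 and Mxd1, which encode repressors that pair with Max, had log2 fold changes of 0.13 ± 0.13 and -0.22 ± 0.12 (SE). For Myc the PBS mean was 61.9 ± 3.42 CPM (SD, n = 3) and the DOX mean 69.3 ± 5.16 CPM (SD, n = 5), a log2 fold change of 0.16 ± 0.11.

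The thioredoxin system, to which Txn2 belongs and on which Txnip acts, spanned a wide range of levels, from a mean of 1.16 RPKM for Txnrd2 to 157 RPKM for Prdx1. All 20 listed genes were tested, 10 were higher and 10 lower in DOX, the median was 0.02 and none passed. Prdx1, which encodes a cytosolic peroxiredoxin, averaged 437 ± 64.0 CPM over PBS libraries and 499.8 ± 62.4 CPM over DOX libraries (SD, n = 3 and 5), a log2 fold change of 0.19 ± 0.15 (SE). Txndc5, a disulfide isomerase of the endoplasmic reticulum, had a value of -0.07 ± 0.18 and Prdx2 of 0.16 ± 0.17. Prdx4, the peroxiredoxin of the endoplasmic reticulum, had 0.33 ± 0.14 and was the 1 listed gene with an unadjusted p under 0.05 in edgeR (adjusted p = 0.995). Txnip counts per count of Txn1, the cytosolic thioredoxin that Txnip binds, were 1.76 in PBS replicate 1 and ran from 3.41 to 5.51 in the other 7 libraries. Like Txnip per Arrdc4, this ratio separated the batches without overlap. It ran from 1.76 to 4.03 in batch 1 and from 4.18 to 5.51 in batch 2.

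Among glucose transporters, Slc2a1 was not the leading one in these libraries. Per length, Slc2a10, whose product is a transporter of the endoplasmic reticulum and Golgi region, was highest at 17.1 ± 4.84 RPKM (SD, n = 8), followed by Slc2a13, a proton-coupled inositol transporter gene, at 8.20 ± 3.59 RPKM. Slc2a8 stood at 4.53 ± 0.754 RPKM and Slc2a4, which encodes the insulin-responsive transporter GLUT4, at 2.48 ± 0.925 RPKM. Slc2a3, at 0.685 ± 0.211 RPKM, Slc2a12, at 0.659 ± 0.283 RPKM, and Slc2a1 overlapped in range. Hk1, which encodes the main hexokinase, stood at 6.74 ± 1.24 RPKM and Hk2 at 0.856 ± 0.271 RPKM. Of the 15 listed genes 10 were tested, 2 were higher and 8 lower in DOX, the median log2 fold change was -0.14, and none passed. It was -0.09 ± 0.22 for Slc2a10, -0.14 ± 0.37 for Slc2a13 and -0.15 ± 0.17 for Hk1 (SE).

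**Figure D4:**
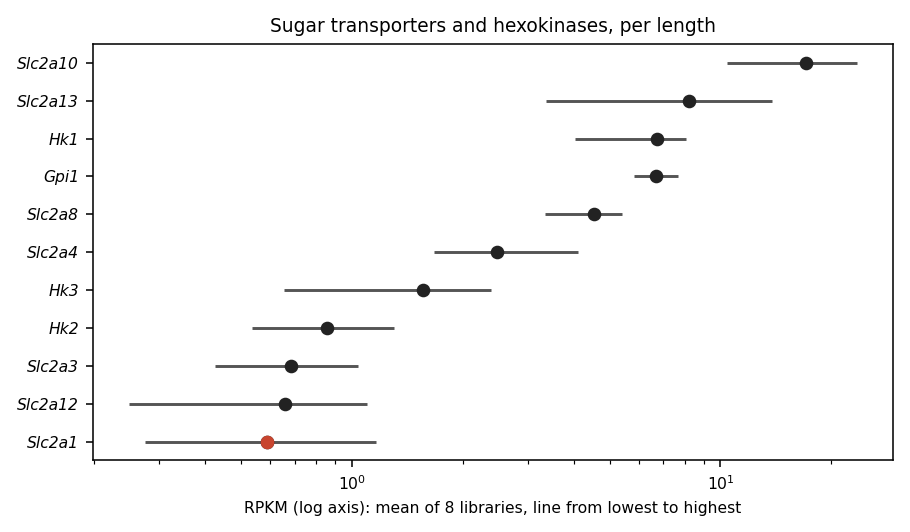
RPKM of the tested sugar transporter and hexokinase genes and Gpi1 on a log axis; points are means of the 8 libraries, lines run from the lowest to the highest library, and Slc2a1 is in red. Slc2a1 has the lowest mean, at 0.589 RPKM, and overlaps Slc2a3, Slc2a12 and Hk2.

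The ubiquitin ligases through which alpha-arrestins act ranged widely in level. Of 15 NEDD4-family ligases and partners 14 were tested, 5 were higher and 9 lower in DOX, the median log2 fold change was -0.04, and none passed. Mean levels of the tested genes ran from 0.131 RPKM for Nedd4l to 87.0 RPKM for Ndfip1. Nedd4 averaged 636 ± 107 CPM over PBS libraries and 604 ± 103 CPM over DOX libraries (SD, n = 3 and 5). Itch, whose product ubiquitinates Txnip, differed by -0.18 ± 0.16 on the log2 scale (SE), and Ndfip1, an adaptor that activates these ligases, of 0.12 ± 0.12. Of 7 other arrestin-fold genes 6 were tested, of which 4 had higher and 2 lower values in DOX. The median was 0.09 and none was called. The alpha-arrestin gene Arrdc5, also listed, had no row under that symbol in the count table. Vps26a, Vps26b and Vps26c, subunits of the retromer and retriever sorting complexes, lay between -0.06 and 0.09.

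Txnip is also raised by FoxO factors and, with Arrdc2, by glucocorticoids in several tissues, so a list of such genes was examined. All 21 were tested, 15 were higher and 6 lower in DOX, and the median log2 fold change was 0.15, against 0.02 for all genes. None passed in edgeR. The members with an unadjusted p under 0.05 were Per1, a clock gene (0.50 ± 0.20), Ccng2, which encodes cyclin G2 (0.40 ± 0.17), and Sesn1, which encodes sestrin 1 (0.28 ± 0.10, log2 ± SE), each with an adjusted p of 0.995 in edgeR. Over all 15373 genes 571 were under this unadjusted limit, 304 of them higher in DOX, and 53.0% of all genes were higher. The members of highest mean had values of 0.22 ± 0.26 for the glucocorticoid target Tsc22d3, -0.10 ± 0.15 for Ddit4 and 0.00 ± 0.17 for Pdk4, a kinase gene that limits pyruvate use. The immediate early genes, which respond to cell handling and to other stimuli, had all 10 tested members higher in DOX. Their median was 0.42, beside 53.0% higher and a median of 0.02 over all genes. Their sum ran from 1349 to 2488 CPM in PBS and from 1492 to 4226 CPM in DOX. Dusp1 is in both this list and the FoxO and glucocorticoid list. The part of handling or of other stimuli in the FoxO and glucocorticoid values was not tested.

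**Figure D5:**
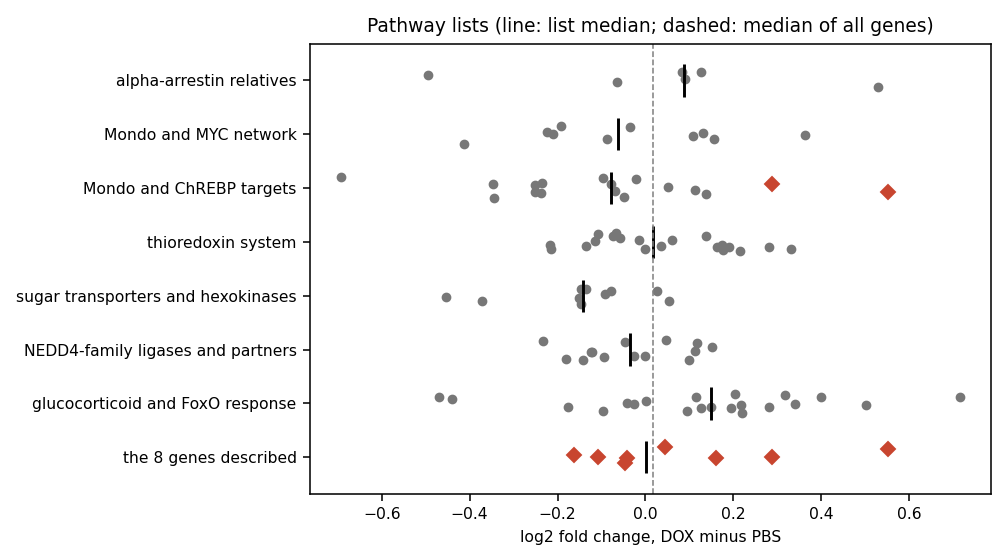
Log2 fold change, DOX minus PBS, of every tested gene in the 7 pathway lists (grey points) and of the 8 genes described (red diamonds, also where a list holds one), with vertical offsets only to separate points; black lines are list medians and the dashed line is the median of all genes tested, 0.02. List medians lie between -0.14 and 0.15, and Txnip is the highest diamond at 0.55.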

How the data were processed

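Polyadenylated RNA of GFP-sorted osteoblasts became cDNA by the SMART-Seq v4 Plus kit, per the labels' protocols, and that kit does not mark strand. The authors deposited raw read counts per gene symbol, 1 column per library. Build GRCm39 and the tools STAR 2.7.9a, featureCounts 2.0.1, Trim Galore 0.6.6, SAMtools 1.17, MultiQC 1.7 and FastQC 0.11.5 are named per the submitters' processing notes. The annotation, strand setting and handling of multiply matching reads were not given in the sources used here. Row totals began at 10 counts. Reads of overlapping or antisense genes cannot be told apart.

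Groups were read from the titles, which speak of biological replicates; no label ties a library to a single animal, so p-values measure the spread between these libraries. None of the 13 same-group pairs of libraries held identical counts. The main test was edgeR 4.0.16 (R 4.3.3) with TMM scaling, filterByExpr, which kept 15373 genes, and terms for batch and group. It was two-sided, and p-values were adjusted by Benjamini-Hochberg over every gene tested (threshold 0.05). The batch term and a batch by group term were tested likewise. CPM used TMM-adjusted library sizes, and log2 CPM a prior count of 2. RPKM divided CPM by the union exon length in GENCODE M21 (GRCm38, lengths only), and isoforms in use can differ. Promoter windows came from RefSeq. Alternatives used DESeq2 1.42.0, limma 3.58.1, other scaling and filters, and other sets of libraries. The fit was tested on simulated data. Plots used Python 3.11.15 and matplotlib 3.10.9.

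The genes and lists were chosen with earlier results of these data known. Named were all 8 genes, of each list the 3 tested genes of highest mean and any with an unadjusted p under 0.05, and the 5 genes nearest to Txnip in pattern. Slc2a3, Slc2a4, Slc2a8, Slc2a12, Hk2, Txn1, Nedd4l, Txnrd2, Klf10, Pfkfb3 and Dusp1 were named outside this rule, after their values were seen.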

Additional observations from a re-analysis of the deposited data

Results flagged for a closer look

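Arrdc3 in DOX replicate 1, at 63.6 CPM, lay far from the other 4 DOX libraries, the nearest of which stood at 44.2 CPM. The gap took 0.754 of the range of the group, above Dixon's 95% critical value for 5 samples. Chance gives such a gap in about 1 of 20 groups, and 8 genes were examined.

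The DOX effect took opposite directions in the 2 batches, without overlap of groups inside either batch, for 3 genes. The difference, batch 2 minus batch 1 on the log2 scale, was 1.03 for Arrdc4, 2.23 for Slc2a1 and -0.48 for Mlxip. None passed the batch by group test in edgeR (adjusted p = 0.319, 0.376 and 0.463). All of these rest on the single PBS library of batch 1. Such patterns were common: of all 15373 genes tested, 5.99% had that of Arrdc4 and Slc2a1 and 6.16% had that of Mlxip.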

How the results depend on the processing

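The number of genes called between DOX and PBS was 0 in edgeR and in limma-voom (1565 at an unadjusted p under 0.05) and 15 in DESeq2, with 0 to 0 when 1 library was left out. Txnip kept a positive log2 fold change in all 18 alternatives, from 0.35 to 0.59, as did Arrdc4 (0.06 to 0.73) and Arrdc1 (0.01 to 0.29), while Arrdc3 stayed negative (-0.33 to -0.04). The sign changed in 1 of 18 for Mlxip (-0.27 to 0.05), 3 for Txn2 (-0.08 to 0.02) and 5 each for Arrdc2 (-0.16 to 0.13) and Slc2a1 (-0.37 to 0.97); the cause was not tested. Leaving out PBS replicate 1 and DOX replicate 1 together was added after seeing the data. The batch term called 14 genes in edgeR, 506 in DESeq2 and 5 with DOX replicate 1 counted as PBS, and from 0 (without PBS replicate 1) to 938 (without DOX replicate 2) with 1 library left out; it called 3 without PBS replicate 2, 8 without PBS replicate 3 or DOX replicate 4, 4 without DOX replicate 1, 5 without DOX replicate 3 and 6 without DOX replicate 5. The batch by group term called 0 genes in edgeR and 291 in DESeq2, and from 0 to 58 with 1 library left out, with 58 without DOX replicate 2 and 10 without DOX replicate 1. It could not be fitted without PBS replicate 1. Shared replicate numbers did not pair the libraries throughout: deviations from the group means correlated across genes at 0.25, -0.05 and 0.24 for numbers 1 to 3. PBS replicates 1 and 3 were nearest to the DOX replicate of the same number, and PBS replicate 2 to DOX replicate 3. Number 2 lay in different batches, with PBS replicate 2 in batch 2 and DOX replicate 2 in batch 1. With the replicate block in place of batch, 0 genes were called and the log2 fold change of Txnip was 0.43. Slc2a1 had 34 to 217 counts per library, and 86.6% of the genes nearest to it in level had a lower dispersion.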
